A study of Mus musculus with 12 samples.

Results

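The nuclear genes of respiratory chain complexes I, III, IV and V were followed across 4 shRNA groups in gastrocnemius, the large calf muscle, of db/db mice. A probe set was taken when its gene symbol began with Nduf, Uqcr, Cox4i, Cox5, Cox6, Cox7, Cox8 or Atp5, so complex II was left out. This gave 82 of the 23185 genes with a single symbol: 44 for complex I, 8 for complex III, 17 for complex IV and 13 for complex V, each read by 1 probe set. Of these, 68 encode subunits and 8 encode complex I assembly factors (Ndufaf1 to Ndufaf8). The other 6 were the pseudogenes Ndufs5-ps, Uqcrh-ps1 and Atp5c1-ps and the genes Ndufa4, Ndufa4l2 and Cox7a2l, which the names place with complexes I and IV although Ndufa4 protein is today counted with complex IV. Subunits encoded in mitochondrial DNA and those whose symbols did not come up under the rule were not analysed here.

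The respiratory chain sits in the inner mitochondrial membrane. Complex I passes electrons from NADH to ubiquinone, complex III passes them on to cytochrome c and complex IV hands them to oxygen, and the proton gradient that builds up drives ATP synthesis by complex V. In muscle the amount of these complexes follows oxidative capacity, slow and oxidative fibres hold more of them than fast glycolytic fibres, and complex IV contains muscle forms of some subunits.

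All animals carried the BKS.Cg-Dock7m +/+ Leprdb/J background, which lacks a working leptin receptor and develops obesity and diabetes, and they were 12 weeks old when obtained. Adenovirus encoding short hairpin RNA (shRNA, which directs destruction of a matching transcript) was injected, and tissue was frozen 1 week later. Doses are in units of 1e+09 plaque-forming units, which the labels give per treatment group. Control shRNA animals (18, 19 and 20) received 4 units of control virus. LCN13 shRNA animals (21, 22 and 23) received 2 units against the secreted lipocalin LCN13 and 2 of control virus. TSC22D4 shRNA animals (25, 26 and 27) received 2 units against the transcriptional regulator TSC22D4 and 2 of control virus. TSC22D4+LCN13 shRNA animals (29, 30 and 32) received 2 units of each target virus and no control virus. More target virus thus always went with less control virus, and their effects cannot be told apart. Each group had 7 treated animals, of which 3 that the submitters called representative were hybridised, so the spread given here is that of chosen animals. Which cells took up virus is not given in the labels.

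Values are log2 levels, in which a difference of 1 is a doubling, and they ran from 4.78 to 14.09 over all probe sets. All 11 skeletal muscle fibre markers, among them Acta1, Ckm and Mylpf, lay above the array median of 5.48, and their mean level was 13.62 to 13.68 on every array. Loss of the targets was not visible: Tsc22d4 was 6.59 in control and 6.82 in TSC22D4 shRNA muscle (difference 0.24 ± 0.121 SE, adjusted p = 0.619, limma with Benjamini-Hochberg adjustment), and Obp2a, the gene of LCN13, lay between 4.90 and 4.97 on every array, close to the lowest values measured. Interferon response genes were higher in control muscle than in every other group, with a mean level of 7.50 to 7.84 against 6.33 to 6.52. At an adjusted p below 0.05, 17, 21 and 21 of 24 fell in TSC22D4, LCN13 and TSC22D4+LCN13 muscle, beside 0.285%, 0.612% and 2.62% of all genes. The mean level of the 4 red cell markers measured was 5.24 to 5.69 in control, 5.26 to 5.35 in LCN13, 5.70 to 6.16 in TSC22D4 and 6.05 to 6.93 in TSC22D4+LCN13 muscle, with Hbb-bs and Slc4a1 below the array median on average. Against control 2 of the 4 rose in TSC22D4+LCN13 and 0 in the other groups. Of all genes 1.72% rose in TSC22D4+LCN13, 0.0518% in TSC22D4 and 0.237% in LCN13 muscle. The 13 tendon and fibroblast markers were at 8.54 to 9.43 in control, 9.61 to 9.86 in LCN13, 9.18 to 9.78 in TSC22D4 and 9.45 to 10.10 in TSC22D4+LCN13 muscle. The 6 macrophage markers were at 6.42 to 6.58 in control and 6.77 to 7.34 in TSC22D4+LCN13 muscle, where 2 rose, beside 1.72% of all genes. The mean level of the 8 slow fibre markers overlapped between all groups, from 11.42 to 12.08, although 1 of them, Casq2, was below the other groups on every control array. In bulk muscle a change in the share of a cell or fibre type and a change of RNA per cell cannot be told apart, and the part of these gene groups in the results below was not tested beyond the fits named there.

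The respiratory chain genes as a whole shifted by less than 0.05 on the log2 scale, and 9 single members passed in at least 1 comparison, 6 of them in complex I, which holds 44 of the 82. These calls were few and came at rates near those of other genes: 4.88% of the set passed for both viruses against control, beside 4.34% of all genes and 7.77% of genes above the median level, and 7.32% against LCN13, beside 4.21% and 7.19%. Among the 74 members above the median level, 5.41% and 8.11% passed in these comparisons. In muscle with both target viruses, 4 complex I genes rose against control: the core subunits Ndufs7 and Ndufs8 and the accessory subunits Ndufc1 and Ndufv3, by 0.14 to 0.50 on the log2 scale. They are 9.09% of complex I, and the count fell to 1 without animal 19, 20 or 32 and to 0 in 3 alternative fits (the compared arrays alone, and a tendon and fibroblast or a red cell score as a covariate). Neither score overlapped between the groups compared, so the covariate fits can hardly tell score from group. Against LCN13 virus alone, muscle with both viruses had more Ndufc1, Ndufb6 and Atp5o transcript and less Ndufa2, Cox6c and Atp5c1. With either virus alone no member passed an adjusted p below 0.05 against control in the limma fit. The promoters of the 4 complex I genes that rose together are shown to place them on the genome and to set side by side the motifs found in them.

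Each window holds 250 bases before and 50 bases from the gene's start, from the RefSeq promoter table for GRCm38.p6, which had a window for 65 of the 82 members. Capitals mark a match to 1 of 4 motifs searched on both strands. These were NRF1 (GCGCATGC), GABP (CCGGAAG), YY1 (AAGATGGC) and the oestrogen-related receptors (ERR, AAGGTCA), factors known to act on nuclear respiratory genes, and the GABP and YY1 letters can overlap by AAG.
Ndufc1 (Entrez gene 66377, chr3:51408906-51409205, minus strand): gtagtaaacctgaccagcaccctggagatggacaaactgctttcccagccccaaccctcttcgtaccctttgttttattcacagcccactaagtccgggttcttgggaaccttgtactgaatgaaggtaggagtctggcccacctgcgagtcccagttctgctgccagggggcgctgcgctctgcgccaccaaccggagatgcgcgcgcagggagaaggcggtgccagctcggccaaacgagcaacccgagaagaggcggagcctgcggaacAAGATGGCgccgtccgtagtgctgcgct
Ndufs7 (Entrez gene 75406, chr10:80249199-80249498, plus strand): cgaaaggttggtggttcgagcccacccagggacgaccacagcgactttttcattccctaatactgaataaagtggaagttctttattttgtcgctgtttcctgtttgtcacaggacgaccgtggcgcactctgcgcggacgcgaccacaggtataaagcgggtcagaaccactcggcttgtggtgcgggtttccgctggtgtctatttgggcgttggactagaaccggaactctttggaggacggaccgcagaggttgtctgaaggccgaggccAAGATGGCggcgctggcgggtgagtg
Ndufv3 (Entrez gene 78330, chr17:31519865-31520164, plus strand): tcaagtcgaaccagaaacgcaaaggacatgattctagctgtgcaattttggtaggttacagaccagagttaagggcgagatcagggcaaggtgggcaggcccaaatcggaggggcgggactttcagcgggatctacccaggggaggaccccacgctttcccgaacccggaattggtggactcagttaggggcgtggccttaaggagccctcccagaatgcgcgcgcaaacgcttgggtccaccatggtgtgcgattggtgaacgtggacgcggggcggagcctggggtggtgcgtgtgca
Ndufs8 (Entrez gene 225887, chr19:3912725-3913024, minus strand): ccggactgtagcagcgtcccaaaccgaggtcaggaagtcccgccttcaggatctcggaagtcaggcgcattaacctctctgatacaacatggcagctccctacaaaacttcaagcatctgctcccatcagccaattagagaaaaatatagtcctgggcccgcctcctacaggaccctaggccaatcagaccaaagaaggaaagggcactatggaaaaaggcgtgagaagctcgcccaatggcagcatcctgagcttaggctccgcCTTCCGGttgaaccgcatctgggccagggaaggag
Ndufc1 and Ndufs7 both held the YY1 letters just inside the transcript, from base 23 and base 25 counted from 1 at the start. Ndufs8 held the GABP letters on the reverse strand from base 16, and none of the 4 motifs was found in the Ndufv3 window. Over the 70 windows of members, NRF1 letters were in 9 (12.9%, against 3.6% of the 21141 windows of genes on the array), GABP letters in 15 (21.4%, against 11.5%), YY1 letters in 10 (14.3%, against 3.1%) and ERR letters in 4 (5.71%, against 4.08%). A match describes letters and shows no binding. The YY1 letters contain ATG, and whether a match lay at a start codon was not tested.

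The shift of the whole set was summarised for each array as the set level, the mean over members of their deviation from their own mean over the 12 arrays. For all 82 members it was -0.091, 0.018 and 0.0034 in control animals 18, 19 and 20, -0.024, -0.040 and 0.037 in LCN13 animals 21, 22 and 23, 0.034, 0.019 and 0.022 in TSC22D4 animals 25, 26 and 27, and 0.038, -0.013 and -0.0044 in TSC22D4+LCN13 animals 29, 30 and 32. The whole range was 0.129, the group means lay between -0.023 and 0.025, and the pooled SD within groups was 0.0386, so the group means differed by less than arrays did within control, LCN13 or TSC22D4+LCN13 muscle. Control animal 18 was the lowest array, with 67 of 82 members below their own mean. Without it the control mean moved from -0.023 to 0.011, above that of LCN13 and of TSC22D4+LCN13 muscle.

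**Figure D1:**
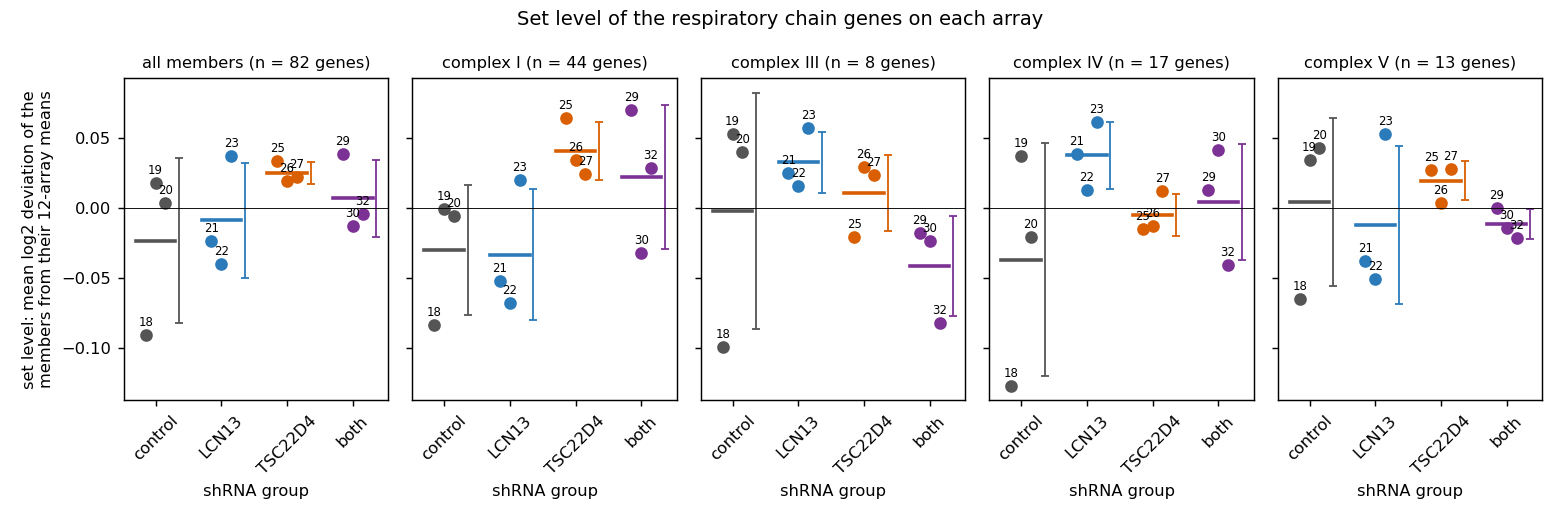
Set level of the 82 members and of each complex on each array (log2, vertical axis) by shRNA group, with animal numbers beside the points. Bars are group means and whiskers 1 SD (n = 3 arrays); control animal 18 is the lowest array in all 5 panels.

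Of the 4 complexes, complex I alone had a set level that separated control from another group. It was -0.083 to -0.00070 in control and 0.025 to 0.064 in TSC22D4 muscle, which did not overlap, while LCN13 (-0.068 to 0.020) and TSC22D4+LCN13 (-0.032 to 0.070) muscle overlapped with control. The 27 accessory subunits taken alone did not separate, at -0.099 to 0.023 in control and 0.016 to 0.064 in TSC22D4 muscle. The 6 core subunits (-0.097 to 0.024 against 0.028 to 0.059) and the 8 assembly factors (-0.076 to 0.0024 against 0.016 to 0.104) did. Complex III ran from -0.099 to 0.053 in control and from -0.082 to -0.018 in TSC22D4+LCN13 muscle. Complex IV was 0.013 to 0.061 in LCN13 muscle, with control between -0.127 and 0.037. Within complex IV the 3 heart and skeletal muscle forms were at -0.182, 0.015 and -0.091 in control and 0.097, 0.027 and 0.091 in LCN13 muscle, which did not overlap. Complex V was -0.065 to 0.043 in control and -0.021 to 3.8e-05 in TSC22D4+LCN13 muscle. Among the target groups, each complex separated some pair. LCN13 and TSC22D4 muscle did not overlap in complex I or in complex IV (TSC22D4 -0.015 to 0.012). LCN13 (0.016 to 0.057) and TSC22D4+LCN13 muscle did not overlap in complex III, nor did TSC22D4 (0.0037 to 0.028) and TSC22D4+LCN13 muscle in complex V. Taken singly, 16.9% of all genes did not overlap between TSC22D4 and control muscle. In complexes III, IV and V control animal 18 alone set the low end: without it the control means were 0.046, 0.0083 and 0.039. In complex I the control mean without it was -0.0032.

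For TSC22D4 shRNA against control, the median change of the 82 members was 0.035, against -0.0019 over all genes, with 52 members above 0. By complex it was 0.086 for complex I, 0.0013 for complex III, 0.0062 for complex IV and 0.012 for complex V. No member passed an adjusted p below 0.05, where 0.336% of all genes did (0.0518% higher and 0.285% lower) and 0.647% of genes above the median level. At an unadjusted p below 0.05 there were 14 members higher and 1 lower, 18.3% of the set, beside 9.26% of all genes (4.52% higher and 4.74% lower) and 14.4% of genes above the median level. Among the 74 members above the median level the share was 20.3%. Between the groups 15 members did not overlap (18.3%, background 16.9%). For LCN13 shRNA against control the median change was 0.019 (all genes 0.0014), at -0.0034, 0.018, 0.063 and 0.026 for complexes I, III, IV and V. Again 0 members passed, beside 0.85% of all genes (0.237% higher and 0.612% lower) and 1.65% of genes above the median level. At an unadjusted p below 0.05 there were 13 higher and 7 lower members (24.4%), beside 12.4% of all genes (5.89% higher and 6.49% lower) and 21.6% of genes above the median level, and 16 did not overlap (19.5%, background 18.8%). Among the 74 members above the median level, 27% had an unadjusted p below 0.05. Control muscle is shared by these comparisons and the next one, so their values are not independent.

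These counts of 0 come with bounds on what could have been missed. The 95% interval of the change lay within 0.5 on the log2 scale (1.41-fold) for 72 of 82 members under TSC22D4 shRNA and for 73 under LCN13 shRNA, and the median half-width of the interval was 0.159. Among the 74 members above the median level these counts were 64 and 65, with a median half-width of 0.167. The other 8 lay near the floor of the scale, where a change could not be read. No member differed by more than 0.5 from control in either single-virus group. The alternative fits gave 0 members for TSC22D4 shRNA in every one run. For LCN13 shRNA 1 member passed in some: Ndufb6 fell by 0.37 among genes above the median level (adjusted p = 0.0441) and with limma's trend and robust options (adjusted p = 0.04), and by 0.45 without LCN13 animal 23 (adjusted p = 0.033). Ndufaf8, an assembly factor of complex I, was higher by 0.31 without LCN13 animal 22 (adjusted p = 0.042) and by 0.29 with the slow fibre score in the fit (adjusted p = 0.0464).

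For TSC22D4+LCN13 shRNA against control, 4 members were higher and 0 lower at an adjusted p below 0.05, which is 4.88% of the set beside 4.34% of all genes and 7.77% of genes above the median level. Of all genes 1.72% were higher and 2.62% lower. All 4 belong to complex I, so 4 of its 44 members passed and none of complexes III, IV and V. The median change was 0.022 (all genes -0.0050), at 0.051, 0.041, 0.0084 and 0.012 for complexes I, III, IV and V, and 55 members were above 0. At an unadjusted p below 0.05 there were 14 higher and 5 lower members (23.2%), beside 20.4% of all genes (8.81% higher and 11.6% lower) and 30.5% of genes above the median level, and 18 did not overlap (22%, background 23.7%). The set as a whole was thus called about as often as all genes, with a share below that of genes above the median level. Among the 74 members above the median level, 5.41% passed and 25.7% had an unadjusted p below 0.05.

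**Figure D2:**
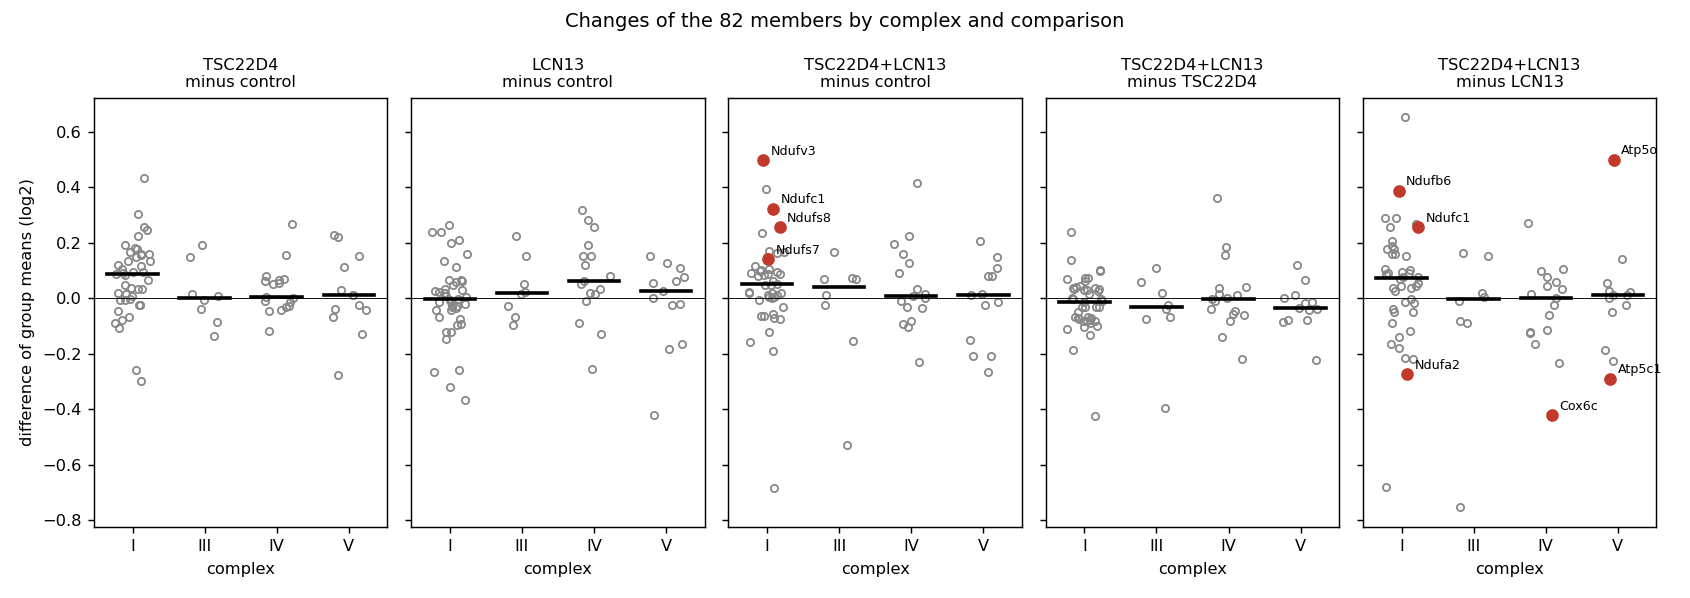
Difference of group means (log2, vertical axis) for each of the 82 members in 5 comparisons, by complex (horizontal axis). Open points are members that did not pass, filled named points passed an adjusted p below 0.05 in the limma fit, and bars are medians; points outside 0.5 are few, and TSC22D4+LCN13 against TSC22D4 has no filled point.

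Core subunits carry the redox centres of complex I. Ndufs7, which holds the last iron-sulfur cluster before ubiquinone, was at 13.85, 13.85 and 13.87 in control, 13.94, 13.88 and 13.94 in LCN13, 13.94, 14.01 and 13.94 in TSC22D4, and 14.01, 13.97 and 14.01 in TSC22D4+LCN13 muscle. Every array of the 3 target groups was above every control array, and the gene sits near the upper end of the scale (14.09), where values repeat between arrays. It rose by 0.14 ± 0.0263 (SE, 3 against 3 arrays, 1.10-fold) in TSC22D4+LCN13 against control (adjusted p = 0.0214), while TSC22D4 shRNA gave 0.10 (adjusted p = 0.181) and LCN13 shRNA 0.06 (adjusted p = 0.362).

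Ndufs8, which carries the iron-sulfur clusters just before that one, was at 11.43, 11.54 and 11.52 in control, 11.82, 11.62 and 11.69 in LCN13, 11.74, 11.77 and 11.76 in TSC22D4, and 11.79, 11.65 and 11.82 in TSC22D4+LCN13 muscle. The pattern was that of Ndufs7, with control lowest and no overlap with any other group. It rose by 0.26 ± 0.0573 (1.19-fold) in TSC22D4+LCN13 muscle (adjusted p = 0.0387). The difference was 0.26 with TSC22D4 shRNA (adjusted p = 0.129) and 0.21 with LCN13 shRNA (adjusted p = 0.143), neither past the threshold. Of the other 4 core subunits measured, Ndufs1, Ndufs3, Ndufv1 and Ndufv2, none passed in any comparison with all arrays.

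Accessory subunits surround the core and have no redox centre. Ndufc1, a small subunit of the membrane arm, was at 11.03, 11.18 and 11.10 in control, 11.20, 11.16 and 11.16 in LCN13, 11.29, 11.41 and 11.29 in TSC22D4, and 11.48, 11.36 and 11.45 in TSC22D4+LCN13 muscle. Both groups with TSC22D4 virus lay above all arrays without it, and LCN13 overlapped with control. It rose by 0.32 ± 0.0491 (1.25-fold, adjusted p = 0.00932) against control and by 0.26 (1.2-fold, adjusted p = 0.025) against LCN13 shRNA, with 0.23 for TSC22D4 shRNA against control (adjusted p = 0.12).

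Ndufv3, a subunit at the NADH-binding tip, was at 7.56, 7.51 and 7.64 in control, 7.65, 7.80 and 7.98 in LCN13, 8.08, 8.09 and 7.84 in TSC22D4, and 8.20, 7.87 and 8.13 in TSC22D4+LCN13 muscle. Control was again lowest, with the lowest LCN13 array only just above it, and the 3 target groups overlapped each other. It rose by 0.50 ± 0.107 (1.41-fold, adjusted p = 0.0335) in TSC22D4+LCN13 muscle, with 0.43 for TSC22D4 (adjusted p = 0.171) and 0.24 for LCN13 shRNA (adjusted p = 0.397). Of the 27 accessory subunits these were the 2 that passed, and 0 of 8 assembly factors did.

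The call of Ndufc1 against control was kept whichever of the 12 arrays was left out (highest adjusted p = 0.039). That of Ndufs7 was lost without animal 18, 19, 20 or 32 (adjusted p = 0.059 to 0.062), and also among genes above the median level (adjusted p = 0.11) and with trend and robust options (adjusted p = 0.0659). That of Ndufv3 was lost without 18, 19, 20, 29 or 32 (adjusted p = 0.0769 to 0.0973) and that of Ndufs8 without 18, 19, 20, 23, 25, 26, 27, 29 or 32 (adjusted p = 0.0561 to 0.111). Without control animal 18 the core subunit Ndufs1 fell by 0.25 (adjusted p = 0.0272), and 2 members passed in all. Leaving out LCN13 animals, which this comparison reaches only through the shared variance, added Atp5c1 (-0.26, adjusted p = 0.0373 without 21 and 0.0343 without 23) and Atp5md, a membrane subunit of complex V (0.21, adjusted p = 0.0386 without 22 and 0.0374 without 23). All 4 calls were lost when only the 6 arrays compared entered the fit (adjusted p = 0.0648 to 0.106), with the tendon and fibroblast score as a covariate (adjusted p = 0.112 to 0.404) and with the red cell score as a covariate (adjusted p = 0.2 to 0.652). With the tendon and fibroblast score the changes were 0.27 for Ndufc1, 0.14 for Ndufs7, 0.72 for Ndufv3 and 0.20 for Ndufs8. With the red cell score they were 0.27, 0.11, 0.19 and 0.24, beside 0.32, 0.14, 0.50 and 0.26 with no score. Both scores were higher on every TSC22D4+LCN13 array than on every control array. These fits can therefore hardly tell score from group, and a call lost in them decides nothing about either.

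**Figure D3:**
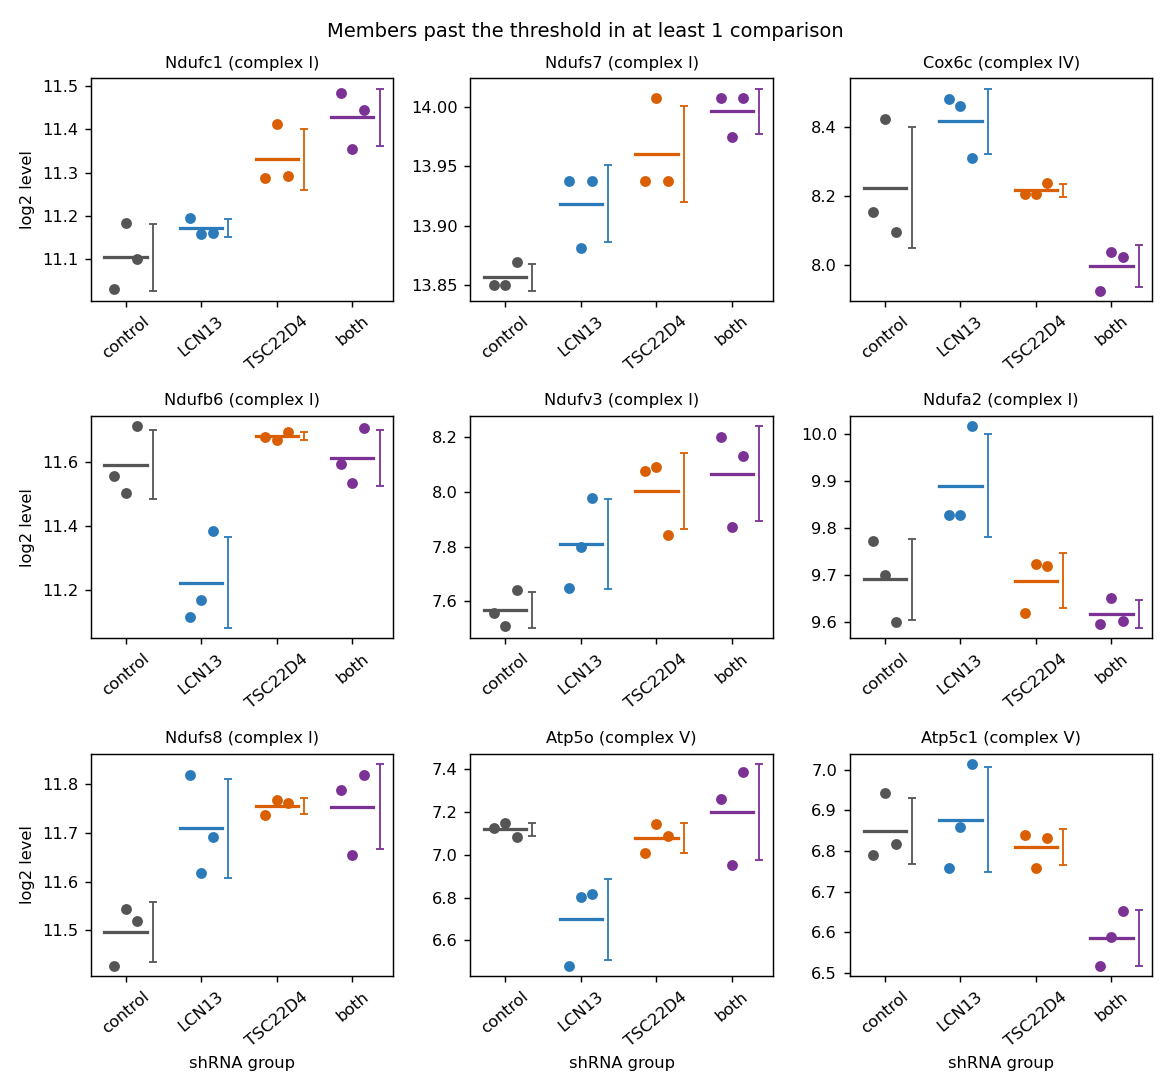
Log2 level (vertical axis) of the 9 members that passed an adjusted p below 0.05 in at least 1 comparison, by shRNA group. Points are arrays, bars group means and whiskers 1 SD (n = 3); Ndufc1, Ndufs7, Ndufs8 and Ndufv3 are lowest in control, while Ndufb6 and Atp5o are lowest in LCN13 muscle, and each panel has its own axis range.

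None of the 8 complex III members passed in any of the 6 comparisons in limma over all genes. At an unadjusted p below 0.05 there were 2, 0 and 1 for TSC22D4, LCN13 and TSC22D4+LCN13 against control. These are 25%, 0% and 12.5%, beside 9.26%, 12.4% and 20.4% of all genes. TSC22D4+LCN13 had 0 against TSC22D4 and 2 against LCN13 (0% and 25%, beside 10.5% and 20.9%). The interaction had 1 (12.5%, beside 9.57%). Uqcrc2, a core protein of the matrix side, had means of 12.79 in control, 12.84 in LCN13, 12.94 in TSC22D4 and 12.86 in TSC22D4+LCN13 muscle, a difference of 0.15 ± 0.0342 for TSC22D4 shRNA (adjusted p = 0.141). Uqcr10, a small membrane subunit, differed by 0.19 ± 0.0802 in the same comparison (adjusted p = 0.506).

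Uqcr11, a small subunit, varied most within groups among complex III members. It was at 11.08, 11.35 and 11.25 in control, 11.53, 11.44 and 11.39 in LCN13, 10.82, 11.33 and 11.13 in TSC22D4, and 10.55, 11.25 and 10.29 in TSC22D4+LCN13 muscle. Animals 29 and 32 were well below the rest while animal 30 of the same group was among the controls. The complex I accessory subunit Ndufb2 was also low in animals 29 and 32, at 9.14 and 9.21. It was low in TSC22D4 animal 26 too, at 9.59, where Uqcr11 was at 11.33, and between 10.21 and 10.48 on the other 9 arrays. The within-group SD was 0.426 for Ndufb2 and 0.288 for Uqcr11, beside a median of 0.0931 over the members and 0.108 over genes above the median level. With all arrays neither passed against control (Ndufb2 -0.68, adjusted p = 0.262, and Uqcr11 -0.53, adjusted p = 0.2). Against LCN13 the all-array differences were -0.68 for Ndufb2 (adjusted p = 0.258) and -0.75 for Uqcr11 (adjusted p = 0.0814), and among genes above the median level alone Uqcr11 passed (adjusted p = 0.0423). Without animal 30 both fell against control, Ndufb2 by 1.12 (adjusted p = 0.0126) and Uqcr11 by 0.80 (adjusted p = 0.0211), and against LCN13, Ndufb2 by 1.12 (adjusted p = 0.0115) and Uqcr11 by 1.03 (adjusted p = 0.00906). Animal 30 also stood apart in marker lists of other cell types: its mean adipocyte marker level was 10.92, above 10.38 or less on the other arrays, and its macrophage level was 7.34, above 6.81 or less. Its hepatocyte level of 6.82 was above 6.07 and 5.92 in animals 29 and 32, but LCN13 animal 22 was higher, at 7.29. The part of these markers in the Ndufb2 and Uqcr11 values was not tested.

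**Figure D4:**
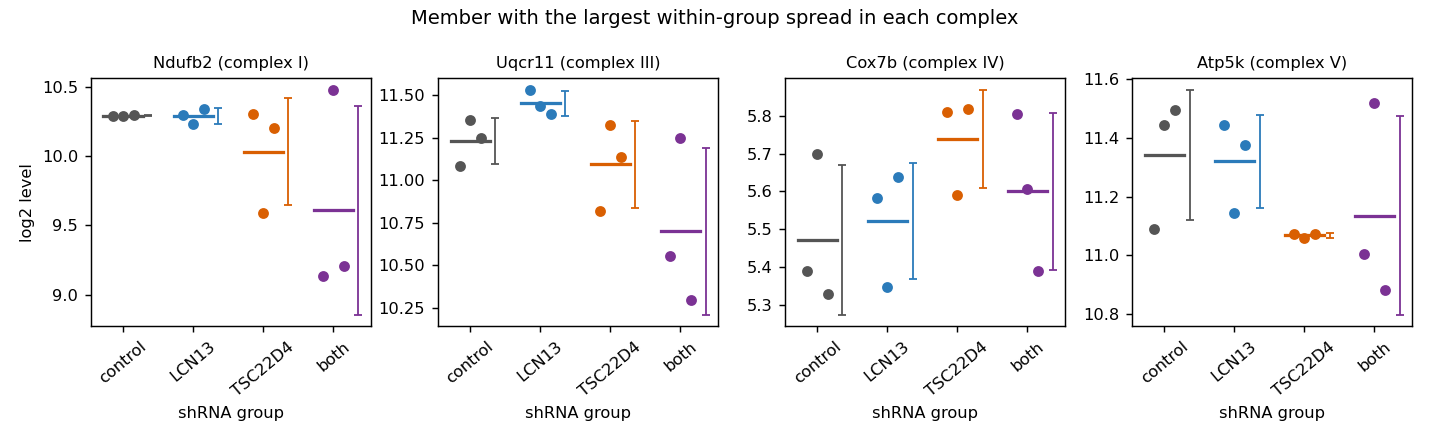
Log2 level (vertical axis) by shRNA group of the member with the largest within-group SD in each complex, with points for arrays, bars for group means and whiskers for 1 SD (n = 3). In Ndufb2 and Uqcr11 a pair of TSC22D4+LCN13 arrays lies below the third, and each panel has its own axis range.

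Complex IV contains paired forms of some subunits, a widespread form and a form of heart and skeletal muscle. The muscle form Cox6a2 was at 12.90, 13.13 and 13.06 in control, 13.34, 13.28 and 13.25 in LCN13, 13.06, 13.11 and 13.07 in TSC22D4, and 13.11, 13.21 and 13.05 in TSC22D4+LCN13 muscle. LCN13 muscle was highest without overlap, but the difference from control of 0.26 ± 0.0595 did not pass (adjusted p = 0.0932). Its widespread counterpart Cox6a1 was at 10.87, 11.07 and 11.17 in control, 11.24, 11.38 and 11.47 in LCN13, 10.89, 11.15 and 11.25 in TSC22D4, and 11.34, 11.68 and 11.35 in TSC22D4+LCN13 muscle. Both groups with LCN13 virus lay above control, by 0.32 ± 0.124 (adjusted p = 0.311) for LCN13 alone and 0.42 ± 0.124 (adjusted p = 0.0915) for both viruses, and neither difference passed. Both forms were thus higher on average in LCN13 muscle.

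No member of the remaining pairs passed. The muscle form Cox7a1 differed from control by 0.15, 0.16 and 0.20 in LCN13, TSC22D4 and TSC22D4+LCN13 muscle and the widespread form Cox7a2 by 0.08, -0.03 and -0.03, with no adjusted p below 0.153. The muscle form Cox8b differed by 0.06, 0.06 and 0.0020, and Cox8a by 0.28, -0.03 and 0.16 (lowest adjusted p = 0.301). Cox4i1, the widespread form of the regulatory subunit, was at 11.02, 11.16 and 11.26 in control and 10.72, 10.92 and 11.04 in LCN13 muscle, a difference of -0.26 ± 0.0779 (adjusted p = 0.193). It was the lone form here that was lower in LCN13 muscle on average, and the groups overlapped. Cox4i2, the form known from lung, differed from control by 0.02, -0.12 and -0.10. Cox7b, a small membrane subunit, had the largest within-group SD of the complex (0.175). It was at 5.33 to 5.70 in control and 5.59 to 5.82 in TSC22D4 muscle. Its lowest control array was below the array median of 5.48, so this gene was read low on the scale.

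Cox6c, another small membrane subunit, was the 1 complex IV member that passed anywhere. It was at 8.15, 8.42 and 8.10 in control, 8.48, 8.46 and 8.31 in LCN13, 8.21, 8.21 and 8.24 in TSC22D4, and 7.93, 8.04 and 8.02 in TSC22D4+LCN13 muscle. All TSC22D4+LCN13 arrays lay below every other array. It fell by 0.42 ± 0.079 (1.34-fold lower, adjusted p = 0.0235) against LCN13 shRNA, while the differences from control (-0.23, adjusted p = 0.137) and from TSC22D4 shRNA (-0.22, adjusted p = 0.382) did not pass.

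Complex V had 13 members, 5 of the F1 head and central stalk, 1 of the membrane ring (Atp5g3), 6 of the stator and membrane part and the pseudogene Atp5c1-ps. Atp5c1, the rotating central stalk, was at 6.79, 6.94 and 6.82 in control, 6.76, 6.86 and 7.01 in LCN13, 6.84, 6.76 and 6.83 in TSC22D4, and 6.52, 6.59 and 6.65 in TSC22D4+LCN13 muscle. As with Cox6c, muscle with both viruses was lowest without overlap. It fell by 0.29 ± 0.0661 (1.22-fold lower, adjusted p = 0.0429) against LCN13, and the difference from control was -0.26 (adjusted p = 0.0568).

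Atp5o, which joins the head to the stator, was at 7.13, 7.15 and 7.08 in control, 6.48, 6.80 and 6.82 in LCN13, 7.01, 7.14 and 7.09 in TSC22D4, and 7.26, 6.95 and 7.39 in TSC22D4+LCN13 muscle. Here LCN13 muscle stood apart from the other 3 groups, by -0.42 ± 0.113 from control (adjusted p = 0.142). Against LCN13 muscle it rose by 0.50 ± 0.113 in TSC22D4+LCN13 muscle (1.41-fold, adjusted p = 0.0416). Atp5d, a small subunit of the central stalk, differed from control by 0.15 ± 0.0348 with TSC22D4 shRNA (adjusted p = 0.14), and Atp5k, a subunit at the dimer interface, had the largest within-group SD of the complex (0.217) and no adjusted p below 0.537.

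TSC22D4+LCN13 shRNA against LCN13 shRNA adds the TSC22D4 virus in place of control virus. Here 6 members passed, 3 higher and 3 lower, which is 7.32% of the set beside 4.21% of all genes (1.32% higher and 2.9% lower) and 7.19% of genes above the median level. At an unadjusted p below 0.05 there were 15 higher and 9 lower (29.3%), beside 20.9% of all genes (9.06% higher and 11.8% lower) and 29.1% of genes above the median level, and 22 did not overlap (26.8%, background 22.6%). Among the 74 members above the median level, 8.11% passed and 32.4% had an unadjusted p below 0.05. The median change of the whole set was 0.026 (all genes -0.0033), at 0.072, -0.0024, 0.00033 and 0.012 for complexes I, III, IV and V. Besides Ndufc1, Cox6c, Atp5c1 and Atp5o, described above, these were the complex I accessory subunits Ndufb6 and Ndufa2.

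Ndufb6, of the membrane arm, was at 11.56, 11.51 and 11.71 in control, 11.12, 11.17 and 11.39 in LCN13, 11.68, 11.67 and 11.70 in TSC22D4, and 11.60, 11.54 and 11.71 in TSC22D4+LCN13 muscle. LCN13 muscle was below all other arrays, the pattern of Atp5o. It rose by 0.39 ± 0.0758 (1.31-fold, adjusted p = 0.0266) in TSC22D4+LCN13 against LCN13 muscle, and the difference of LCN13 from control was -0.37 (adjusted p = 0.0675). Ndufa2, of the peripheral arm, was at 9.77, 9.70 and 9.60 in control, 9.83, 9.83 and 10.02 in LCN13, 9.62, 9.72 and 9.72 in TSC22D4, and 9.60, 9.65 and 9.60 in TSC22D4+LCN13 muscle. It ran the other way, with LCN13 highest, and fell by 0.27 ± 0.0592 (1.21-fold lower, adjusted p = 0.0358).

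Each of these 6 calls was lost without some single arrays. That of Cox6c was lost without animal 21, 22, 29 or 32 (adjusted p = 0.0598 to 0.0746), Ndufb6 without the same animals (adjusted p = 0.0617 to 0.0799), and Ndufc1 without 21, 22, 23, 29 or 32 (adjusted p = 0.0605 to 0.0732). Ndufa2 lost its call without 19, 21, 22, 23, 26, 27, 29 or 32 (adjusted p = 0.0521 to 0.0947), Atp5c1 without any array other than 19 and 21 (adjusted p = 0.0516 to 0.111) and Atp5o without any array other than 30 (adjusted p = 0.0574 to 0.111). All 6 were lost in the fit of the 6 compared arrays (adjusted p = 0.0849 to 0.188) and with the red cell score as a covariate (adjusted p = 0.362 to 0.662), and 5 with array weights, which left Ndufc1. With the red cell score the changes were 0.20 for Ndufc1, 0.39 for Ndufb6, -0.29 for Ndufa2, -0.24 for Cox6c, 0.35 for Atp5o and -0.16 for Atp5c1. The red cell score was higher on every TSC22D4+LCN13 array than on every LCN13 array, so that fit can hardly tell score from group. Ndufa2 and Atp5c1 also lost their calls with trend and robust options (adjusted p = 0.0634 and 0.0747) and with the slow fibre score (adjusted p = 0.0552 and 0.0654), and Atp5o with the tendon and fibroblast score (adjusted p = 0.0511). Without animal 23 the change of Cox4i1 was 0.35 and passed (adjusted p = 0.048), and without animal 22 Ndufaf8 alone passed (-0.29, adjusted p = 0.0316). Without control animal 18 Ndufs1 fell (-0.18, adjusted p = 0.0463), without control animal 20 the accessory subunit Ndufa8 rose by 0.27 (adjusted p = 0.0489), and without animal 30 the assembly factor Ndufaf7 rose by 0.39 (adjusted p = 0.0255).

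Against TSC22D4 shRNA, adding the LCN13 virus in place of control virus changed 0 members in the limma fit, as it did 0% of all genes. Without adjustment, 1 member was higher and 4 were lower at a p below 0.05 (6.1%), beside 10.5% of all genes (4.47% higher and 6.03% lower) and 14.6% of genes above the median level, 12 did not overlap (14.6%, background 14.6%), and the median change was -0.014 (all genes -0.0039). Among the 74 members above the median level, 6.76% had an unadjusted p below 0.05. The 95% interval lay within 0.5 for 77 of the 82, and for 69 of the 74 members above the median level. The interaction, the effect of TSC22D4 shRNA beside LCN13 virus minus that beside control virus, passed for 0 members (background 0.125%, with 0.104% higher, 0.0216% lower and 0.25% among genes above the median level). At an unadjusted p below 0.05 there were 3 higher and 9 lower members (14.6%), beside 9.57% of all genes (4.04% higher and 5.53% lower) and 14.1% of genes above the median level. Among the 74 members above the median level the share was 16.2%. Cox6c had the lowest p, at -0.41 ± 0.112 (adjusted p = 0.253), and it passed without control animal 19 (-0.51, adjusted p = 0.0428), so a difference in the TSC22D4 effect between the backgrounds was not shown for any member with all arrays.

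A test over all 4 groups at once found 2 members of 82, Ndufc1 (adjusted p = 0.0213) and Ndufb6 (adjusted p = 0.0299). Beside them, 3.33% of all genes and 719 of the 11592 genes above the median level passed. Ndufc1 lost this call without animal 20 or 32, and Ndufb6 without 18, 21, 22, 25, 26, 27, 29 or 32. The count ran from 0 without animal 32 to 7 without animal 30. An unadjusted p below 0.05 was reached by 27 members (32.9%), beside 20.8% of all genes and 33.1% of genes above the median level. Among the 74 members above the median level the share was 36.5%. The 11592 genes above the median level were not matched to the members by level. For them the cut was the median of the gene means, and for members the median of all values. They serve as a background because genes above the median passed more often, and 74 of the 82 members lie above the median. The other 8 (Cox5b, Ndufb3, Ndufaf2, Cox6b2, Cox7b2, Cox8c, Uqcrh-ps1 and Atp5c1-ps) had means near the floor of the scale, so a change in them could not be read. Cox5b and Ndufb3 encode subunits found in all tissues, and their probe sets lay at 5.05 to 5.29 and 4.88 to 4.94.

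**Figure D5:**
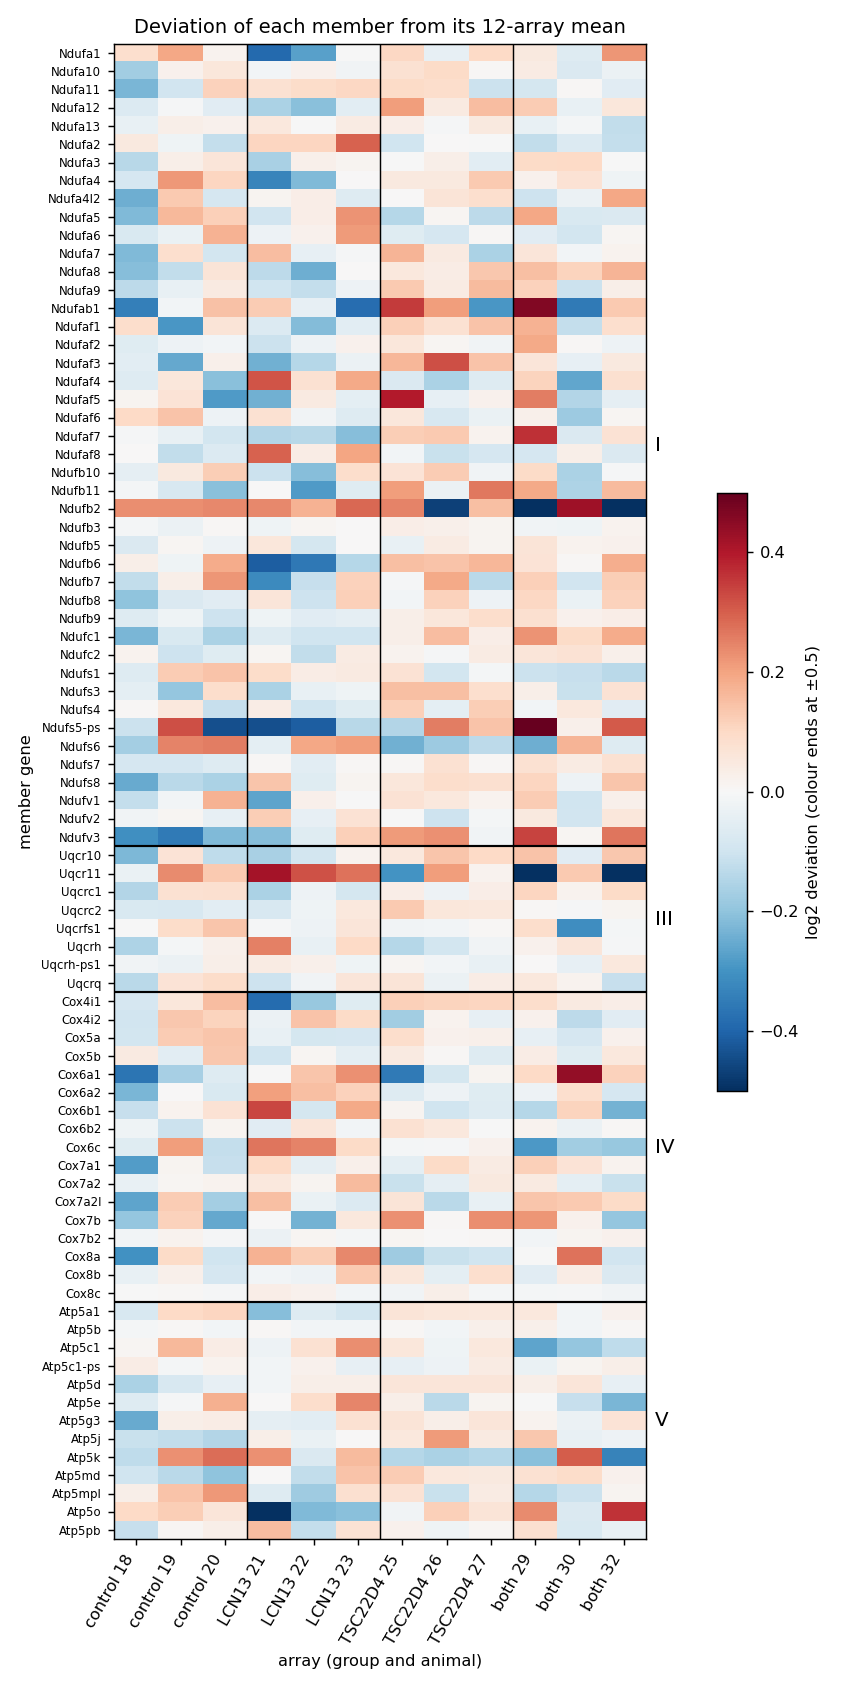
Deviation of each of the 82 members (rows, ordered by complex) from its mean over the 12 arrays (columns, by group and animal), on the log2 scale with colour ending at 0.5 in either direction. Control animal 18 is mostly blue, and deviations beyond 0.5 are found in Ndufb2, Uqcr11, Ndufs5-ps and Atp5o.

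Genes around the chain gave few changes too, and their counts are read against 4.34% of all genes for both viruses against control and 4.21% against LCN13 (7.77% and 7.19% above the median level). Of the 4 complex II subunits, 0 passed in any comparison, with at most 2 at an unadjusted p below 0.05 in a comparison. Those 2, 1 higher and 1 lower, were in LCN13 against control. There 12.4% of all genes and 21.6% of genes above the median level had such a p. Of 6 electron carriers and ubiquinone genes, Coq7, an enzyme of ubiquinone synthesis, fell by 0.42 in TSC22D4+LCN13 against LCN13 (adjusted p = 0.027). Of 32 assembly factors outside the name rule, Coa5, a complex IV factor, fell by 0.25 against control with both viruses (adjusted p = 0.0317), and 3 rose against LCN13: Bcs1l, which inserts the Rieske protein into complex III, by 0.57 (adjusted p = 0.0468), Cox19 by 0.44 (adjusted p = 0.0367) and Coa3 by 0.30 (adjusted p = 0.0285), both complex IV factors. Among 16 regulators of nuclear respiratory genes, Nrf1, an activator of such genes, fell by 0.21 in TSC22D4+LCN13 against control (adjusted p = 0.0498). Ppargc1a, a coactivator of such genes, was at 10.26, 10.38 and 10.42 in control and 10.60 to 11.15 on all 9 other arrays, with no overlap. Its differences from control of 0.34 with TSC22D4, 0.59 with LCN13 and 0.44 with both viruses did not pass (adjusted p = 0.481, 0.0932 and 0.105), and it is named after its values were seen. In TSC22D4+LCN13 against control the slow fibre marker Casq2 rose by 0.58 (adjusted p = 0.0476) and the other 7 slow fibre markers did not pass.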

How the data were processed

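Total RNA of gastrocnemius from 12 separately numbered animals, 3 in each of 4 groups, was hybridised to 1-colour Affymetrix arrays. The authors deposited log2 levels made with RMA, per the submitters' processing notes, which equalises the distribution of values between arrays, so a shift of most transcripts would not be seen. Neither the labels nor the table name an RMA version, a probe set definition or a build. Of 25206 probe sets 23185 had 1 gene symbol in the array's annotation table and were fitted, with no filter.

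In limma 3.58.1 (R 4.3.3), lmFit gave each group a mean over all 12 arrays and eBayes moderated the variance, leaving 8 residual degrees of freedom plus 1.69 from the prior. The 6 two-sided comparisons and an F test were each adjusted by Benjamini-Hochberg over 23185 genes, with a threshold of 0.05. The steps were tested on simulated data. The number of arrays limits the precision, and the labels name no batch, so none could be tested.

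The members and lists were chosen with earlier results of these data known. Named were the targets, each member past the threshold, the 3 members per complex with the smallest F-test p, the member per complex with the largest spread, 8 complex IV forms and up to 4 called genes of each other list; a member outside this rule was named after its values were seen. Alternatives were all probe sets, genes above the median level, trend and robust options, quantile normalization, median centring, array weights, the compared arrays alone, membership by current symbol, subunits only in the set level, each array left out, and, added after the data were seen, tendon and fibroblast, red cell or slow fibre scores as covariates.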

Additional observations from a re-analysis of the deposited data

How the results depend on the processing

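No paired analysis was possible because animal numbers differ between the groups. The counts of members past the threshold moved as follows. For LCN13 against control the count of 0 became 1 among genes above the median level, 1 with trend and robust options and 1 with the slow fibre score. For TSC22D4+LCN13 against control the count of 4 became 0 with the compared arrays alone, 0 with the tendon and fibroblast score and 0 with the red cell score. Against LCN13 the count of 6 became 0 with the compared arrays alone, 0 with the red cell score and 1 with array weights. In both of these comparisons the scores that gave 0 did not overlap between the groups compared. Those counts can hardly tell score from group. Over all 4 groups the count of 2 became 5 among genes above the median level, 1 with the tendon and fibroblast score and 0 with the red cell score. Leaving out 1 array at a time gave 0 to 0 members for TSC22D4 against control, 0 to 1 for LCN13 against control, 1 to 6 for TSC22D4+LCN13 against control, 0 to 0 against TSC22D4, 0 to 8 against LCN13, 0 to 1 for the interaction and 0 to 7 over all groups. The medians then ran from 0.0033 to 0.048, -0.0029 to 0.036, 0.0067 to 0.063, -0.032 to 0.00065, 0.0070 to 0.040 and -0.047 to -0.0078 in the 6 comparisons. The cause was not tested, beyond that fewer arrays leave fewer degrees of freedom. All probe sets, quantile normalization, median centring and current symbols moved none of these counts past 1.5 times. On 11 of the 12 arrays the distribution of values was already equal, and on the other it departed by at most 0.0019. Quantile normalization and median centring could therefore hardly move a count. The current symbol differed for 0 members, so that alternative could drop none. Among 3556 values of 26 named genes, targets included, under an alternative, 96 lost and 14 gained a call and 0 reversed a called direction. Arrays of 3 animals a group and signals near the floor limit what could be seen for 8 members.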
